A study of Homo sapiens with 6 samples.

Results

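The mitochondrial respiratory chain is built from proteins encoded on 2 genomes, and the nuclear genes for it were followed here in HUVECs (human umbilical vein endothelial cells, a primary cell type). MicroRNAs are short RNAs that pair with messenger RNAs and lower their level or translation. Gene names beginning with NDUF, SDHA to SDHD, UQCR, COX and a digit, or ATP5, together with CYC1 and CYCS, gave 130 names of 18317 in the RNA sequencing files. Of these, 79 are subunits of a complex, 22 are assembly factors, 2 are other chain proteins (cytochrome c and factor B of the ATP synthase), and 27 are pseudogenes, antisense RNAs or readthrough transcripts that share the names. The cells had been transfected with 8OH-G miR-483 (3 libraries), in which the microRNA bears the oxidised base 8-oxoguanine, or with miR-483 itself (3 libraries), and RNA was taken on day 2 in both groups. All 6 libraries come from cells given one of the microRNA forms with a lipid reagent. The scramble control that the labels mention was not analysed here, so a difference can come from either form, and any difference in handling between the groups cannot be told apart from it. Nothing in the labels tells whether replicates were separate cultures or donors, so p-values measure the spread between these libraries only.

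The respiratory chain passes electrons from NADH (complex I) and succinate (complex II) to ubiquinone, on to complex III, by the small carrier cytochrome c to complex IV, and finally to oxygen. Complexes I, III and IV pump protons across the inner mitochondrial membrane, and complex V, the ATP synthase, lets them flow back to make ATP. Subunits stay in the finished complex, whereas assembly factors help to build it or to fit its cofactors and then leave. Endothelial cells are known for relying largely on glycolysis for ATP, and use their respiratory chain also for biosynthesis and signalling.

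The deposited values were taken as FPKM, fragments scaled by gene length and by library size, a unit inferred from the values. Levels are set side by side between genes on that assumption only. Totals were 1598260 to 1687283 FPKM in the 8OH-G miR-483 libraries and 1396537 to 1440422 in the miR-483 libraries, and rows of mitochondrial DNA made up 71.3% to 76.6% of them. Most of that share stood on 1 row, MT-ND4L (64.9% to 67.2% of the total with 8OH-G miR-483 and 60.8% to 65.7% with miR-483), whose value is too high to be a plausible level. Read depth is unknown, and the number of libraries limits the precision. Endothelial markers were abundant in both groups: the 12 markers summed to 1397 to 1654 FPKM with 8OH-G miR-483 and 2554 to 2666 FPKM with miR-483. Of the 12, 8 were lower with 8OH-G miR-483. Among all genes 20.5% were called lower and 34.9% higher, by the test given below. Mural and fibroblast markers summed to 826 to 1019 FPKM with 8OH-G miR-483 and 620 to 842 FPKM with miR-483. Nearly all of that was RGS5, which was not called (adjusted p = 0.0622 by limma). Markers of other cell types were 1 of 3 tested lower for mural cells and fibroblasts, 2 of 3 lower for leukocytes (CD68 and LYZ, the second of which passed the filter through the miR-483 group alone), 1 of 3 higher for epithelium (KRT18) and 2 of 3 lower for lymphatic endothelium. No row was matched for the 6 erythroid markers. In bulk RNA a smaller share of cells that express a gene and less RNA of it per cell cannot be told apart. The part of these marker differences in the results below was not tested.

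Each gene was tested between the groups with limma on log2(FPKM + 1), with Benjamini-Hochberg adjusted p-values over all 12712 genes tested and a threshold of 0.05. Over all genes, 34.9% were called higher in the 8OH-G miR-483 libraries and 20.5% lower, and the median log2 difference was 0.09. Of the 103 chain genes (subunits, assembly factors, cytochrome c and factor B), 101 could be tested, and 41 were higher and 1 was lower, with a median log2 difference of 0.18. By class, 29 of 77 subunits were higher and 0 were lower (0 also at an unadjusted p under 0.05 and by limma without trend and robust shrinkage), with a median of 0.18. Among the 22 assembly factors 10 were higher and 1 was lower, with a median of 0.24. SDHAF3, counted in the 10 and in the 41, passed the filter through the 8OH-G miR-483 group alone, so its selection favoured a difference. Higher calls made up 37.7% of subunits and 45.5% of assembly factors, SDHAF3 included, beside the 34.9% of all genes. Scaling the libraries by the median ratio of nuclear genes lowered the median of all genes by 0.10 on the log2 scale. After it 27.2% of all genes were called higher and 27.3% lower, against 28 higher (27.7%) and 4 lower among the 101 chain genes. Subunits then had 18 higher (23.4%, below all genes) and 3 lower, and assembly factors 8 higher (36.4%) and 1 lower. Under quantile normalization 31.2% of subunits and 27.3% of assembly factors were higher, against 27.1% of all genes. The split of all calls also moved, from 63% of them higher as deposited to 49.9% under median-ratio scaling, and to 49.2% when quantile normalization was used.

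**Figure D1:**
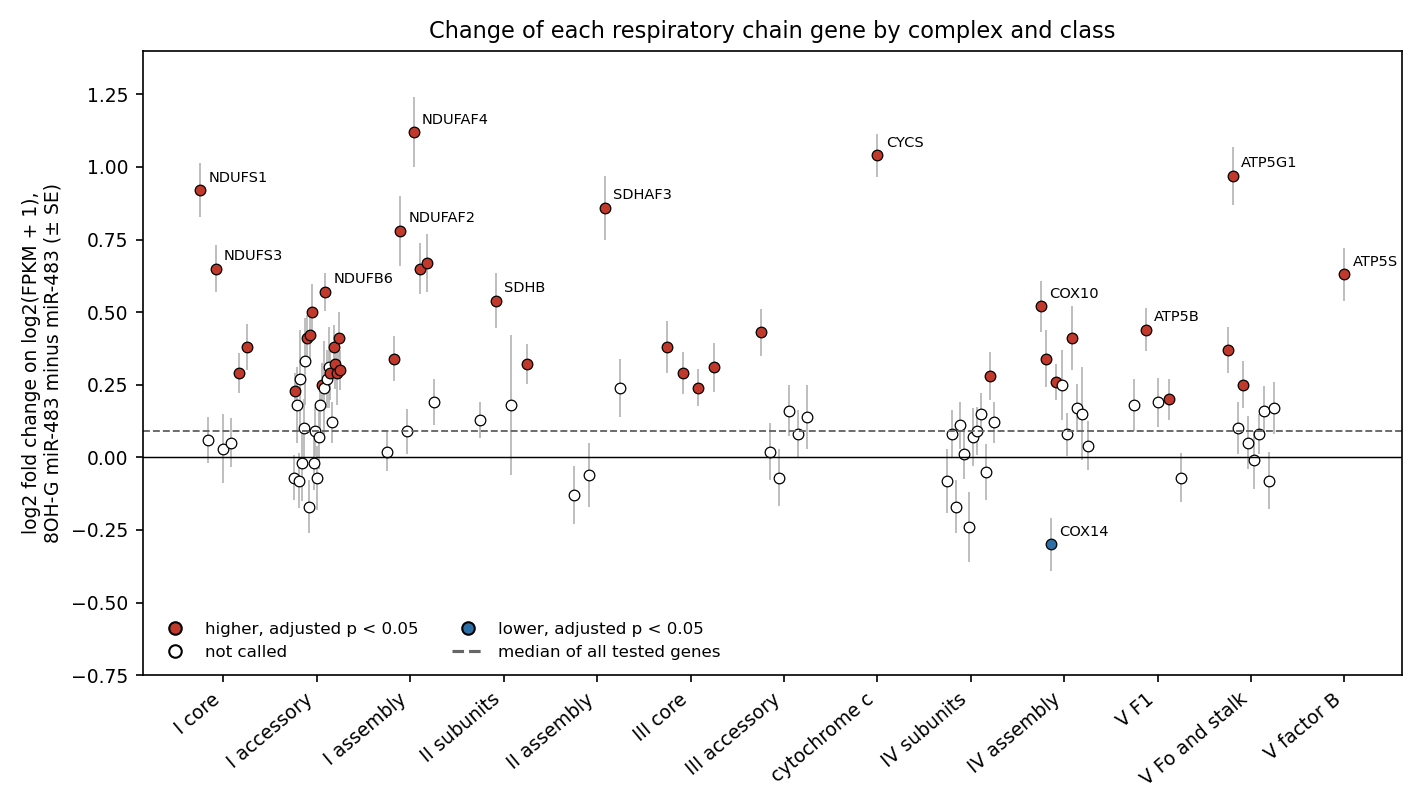
The log2 difference of each tested chain gene, taken on log2(FPKM + 1) as 8OH-G miR-483 minus miR-483, is plotted by complex and class with its standard error. Filled points passed an adjusted p of 0.05 and the dashed line is the median of all 12712 genes (0.09). NDUFAF4 (1.12), CYCS (1.04), ATP5G1 (0.97) and NDUFS1 (0.92) stand above the other members, COX14 (-0.30) is the 1 gene called lower, and complex IV subunits lie between -0.24 and 0.28.

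The 6 libraries did not spread evenly over these genes. Replicate 2 of 8OH-G miR-483 held the highest of the 6 values for 58 of the 101 chain genes (57.4%), against 22.1% of all genes. Replicate 1 of miR-483 held the lowest value for 66 of them (65.3%), against 24.6% of all genes. The median deviation of the 77 subunits from each gene's mean was 0.06, 0.18 and 0.02 on the log2 scale in 8OH-G miR-483 replicates 1 to 3, against -0.20, 0.02 and -0.06 in miR-483 replicates 1 to 3, so replicate 3 of one group and replicate 2 of the other met. For the 22 assembly factors the deviations were 0.11, 0.16 and 0.12 with 8OH-G miR-483, against -0.19, -0.08 and -0.14 with miR-483, and the groups did not overlap. Nor did they over all genes, at 0.05, 0.05 and 0.04 with 8OH-G miR-483 against -0.05, -0.05 and -0.04 with miR-483. The lack of overlap is therefore not particular to assembly factors. The difference of assembly factors minus subunits was 0.05, -0.02 and 0.10 with 8OH-G miR-483 and 0.01, -0.10 and -0.08 with miR-483, values that overlapped. Without replicate 2 of 8OH-G miR-483, 37 chain genes were called higher, and without replicate 1 of miR-483, 35, all of them among the 41. Over all genes the same fits called 3982 of 12386 and 4017 of 12473 higher, against 4433 of 12712 with every library.

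**Figure D2:**
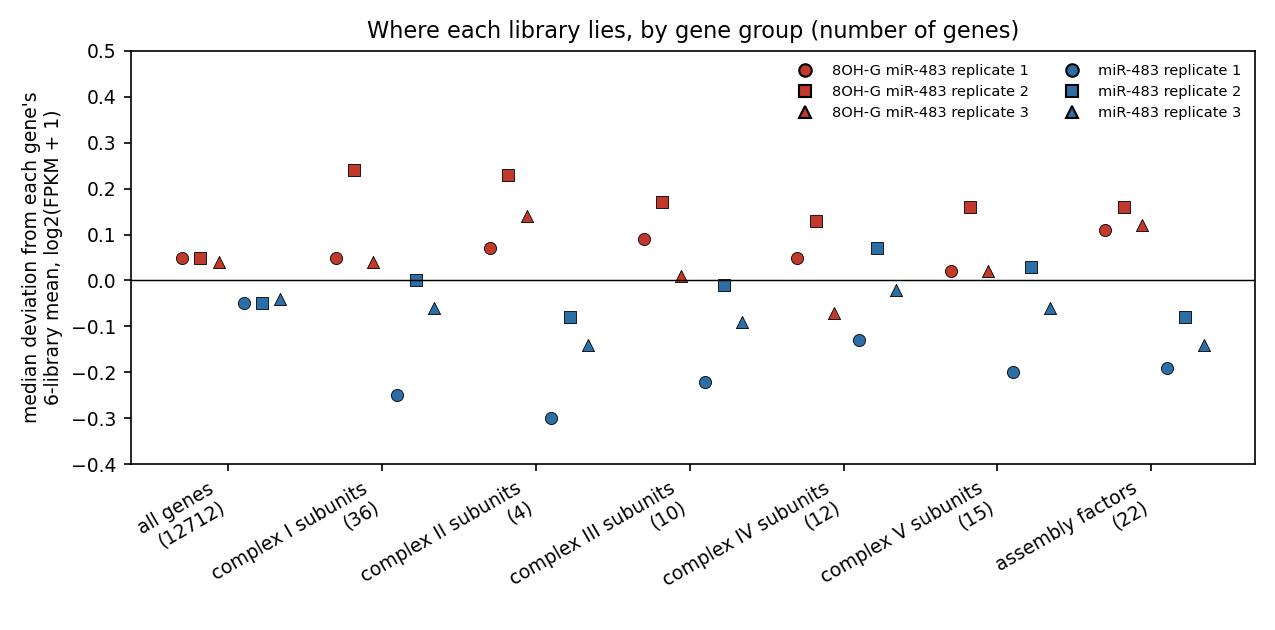
Median deviation of each library from the 6-library mean of every gene, on the log2(FPKM + 1) scale, for all genes, the subunits of each complex and the assembly factors. Replicate 2 of 8OH-G miR-483 (squares) is the highest and replicate 1 of miR-483 (circles) the lowest in each group of chain genes, from 0.13 to 0.24 and from -0.13 to -0.30, and the groups of libraries overlap for complex IV and complex V subunits.

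Nuclear respiratory genes are known for promoters that bind NRF1, the ETS factor GABP and YY1. Promoters of 250 bases before and 50 after the gene start, from RefSeq on GRCh38.p14, were matched for 84 of the 103 chain genes and searched on both strands. The NRF1 motif GCGCNTGCG was in 27 of 84 (32.1%), against 16.2% of 9361 tested genes and 8.05% of all 27305 promoters. The ETS motif CCGGAAG was in 25 of 84 (29.8%), against 20.7% and 10.7%, and the YY1 motif AAGATGGCG in 9 of 84 (10.7%), against 4.32% and 1.85%. The ERR alpha motif TCAAGGTCA was in 1 promoter (1.19%), that of SDHD, against 0.128% of tested genes and 0.359% of all. Among chain genes called higher, NRF1 was in 12 of 31 promoters, ETS in 9 of 31 and YY1 in 6 of 31, and among those not called in 15 of 50, 16 of 50 and 2 of 50. The NRF1 motif reads almost the same on both strands, so a stretch can match on each, and the ETS and YY1 motifs share the letters AAG. These shares are descriptions, and a match is not a binding site.

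Stretches of 100 bases just before the gene start are printed below on the strand of the gene, with motif matches in capitals. They were chosen after the values were seen, to set genes with large differences beside close relatives or genes that differed little. ATP5G1 (RefSeq ATP5MC1, chr17:48892687-48892786, plus strand) and ATP5G2 (ATP5MC2, chr12:53676084-53676183, minus strand) encode the same c subunit, and only the second has a match, to NRF1. NDUFS3 (chr11:47578974-47579073, plus strand) and SDHAF3 (chr7:97117598-97117697, plus strand), both higher, carry ETS matches, as does COX5B (chr2:97645962-97646061, plus strand), which was not called. The call of SDHAF3 is limited by the filter, which it passed through the 8OH-G miR-483 group alone. UQCRC1 (chr3:48609647-48609746, minus strand) carries an NRF1 match. CYCS (chr7:25125261-25125360, minus strand), with a difference of 1.04 on the log2 scale, has none of the 4 motifs in this table's window.
ATP5G1: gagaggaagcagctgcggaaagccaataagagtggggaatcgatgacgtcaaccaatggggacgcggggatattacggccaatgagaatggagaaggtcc
ATP5G2: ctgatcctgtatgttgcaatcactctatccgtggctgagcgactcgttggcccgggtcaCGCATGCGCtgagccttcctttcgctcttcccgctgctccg
NDUFS3: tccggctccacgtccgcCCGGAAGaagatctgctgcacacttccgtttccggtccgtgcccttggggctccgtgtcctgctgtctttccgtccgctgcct
SDHAF3: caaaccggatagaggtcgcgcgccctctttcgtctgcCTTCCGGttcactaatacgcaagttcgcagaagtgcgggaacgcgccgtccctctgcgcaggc
COX5B: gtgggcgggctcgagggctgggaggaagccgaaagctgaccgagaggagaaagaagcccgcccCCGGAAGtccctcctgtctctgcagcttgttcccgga
UQCRC1: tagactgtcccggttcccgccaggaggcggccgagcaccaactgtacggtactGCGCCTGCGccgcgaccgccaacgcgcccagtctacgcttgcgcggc
CYCS: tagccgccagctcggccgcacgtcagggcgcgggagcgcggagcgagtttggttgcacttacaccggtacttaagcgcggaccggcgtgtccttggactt

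Complex I, the NADH dehydrogenase, is the largest complex of the chain. Of its 36 tested subunits 16 were higher in the 8OH-G miR-483 libraries and 0 lower (0 also at an unadjusted p under 0.05 by limma). That made 44.4% higher, against 34.9% higher and 20.5% lower among all genes, and the median log2 difference was 0.26. After median-ratio scaling 30.6% were higher, against 27.2% of all genes. The core subunits, which carry the flavin and the iron-sulfur clusters, gave 4 of 7 higher, and the accessory subunits around them 12 of 29. NDUFS1, the largest iron-sulfur subunit, stood at 25, 24.8 and 28.3 FPKM in the 8OH-G miR-483 libraries, against 12.6, 12.3 and 15.1 FPKM in the miR-483 libraries. The groups were far apart, with a ratio of means of 1.95 and a log2 difference of 0.92 ± 0.092 (SE, adjusted p = 6.1e-05). NDUFS3, a core subunit of the module that hands electrons to ubiquinone, was at 35.8, 38.4 and 32.6 FPKM with 8OH-G miR-483 and 20.7, 22.2 and 23.7 FPKM with miR-483, a 1.60-fold difference (adjusted p = 0.000204). NDUFV2, an iron-sulfur subunit beside the flavin, was 1.31-fold higher (adjusted p = 0.00357), and NDUFV1, which binds the flavin, 1.23-fold (adjusted p = 0.00717). NDUFS7 and NDUFS8, which carry the last iron-sulfur clusters before ubiquinone, had log2 differences of 0.03 and 0.05, below the median of all genes, with groups that overlapped.

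Among the accessory subunits of complex I, NDUFB6, in the membrane arm, had the largest difference. Its levels were 23.2, 22.5 and 25 FPKM with 8OH-G miR-483, against 15.4, 15.7 and 15.4 FPKM with miR-483, a log2 difference of 0.57 ± 0.065 (SE, adjusted p = 0.000128). NDUFAB1, which is also the acyl carrier protein of mitochondrial fatty acid synthesis, followed with 65.1, 74.9 and 63.8 FPKM against 42.1, 52.4 and 48.9 FPKM (8OH-G miR-483 against miR-483, adjusted p = 0.0026), and NDUFA9 was 1.38-fold higher (adjusted p = 0.00435). In all 3 genes each 8OH-G miR-483 library was above each miR-483 library, which the rule for naming them required. NDUFS5 had the highest level of the complex, at 169, 187 and 161 FPKM with 8OH-G miR-483 and 122, 159 and 144 FPKM with miR-483, and lay just inside the threshold (adjusted p = 0.0491). It left the threshold without any 1 library other than replicate 2 of miR-483, with adjusted p-values of 0.051 to 0.145. The 17 accessory subunits that were not called ran from NDUFA8 at -0.17 to NDUFA5 at 0.33 on the log2 scale. After median-ratio scaling 7 accessory subunits were higher, and NDUFA8 was called lower (log2 difference of -0.28, adjusted p = 0.0243).

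NDUFA7 could not be used. Its name stands on 2 rows, and its highest value was 0, 1.01 and 0 FPKM with 8OH-G miR-483 and 22.8, 0.142 and 0.0276 FPKM with miR-483. In replicate 1 of miR-483 repeated names had differing values on their rows, and in the other 5 libraries a single value, so the 22.8 FPKM cannot be set against the others. The same holds in part for NDUFA3 and NDUFA6, whose highest values in that library (35.2 and 20.5 FPKM) were within or near the range of the others. NDUFA7 is named here after its values were seen.

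The assembly factors of complex I had 5 of 8 members higher and 0 lower, with 6 higher and 0 lower at an unadjusted p under 0.05 by limma, and the highest median among the classes of several genes, 0.49 on the log2 scale. The same 5 (62.5%) were higher after median-ratio scaling, against 34.9% of all genes before it and 27.2% after it. NDUFAF4 had the largest difference of all chain genes, with 8.19, 11.7 and 9.61 FPKM with 8OH-G miR-483, against 3.88, 4.23 and 3.72 FPKM with miR-483. The ratio of means was 2.49 and the log2 difference 1.12 ± 0.12 (SE, adjusted p = 6.93e-05). NDUFAF2 was at 21.7, 25.4 and 25 FPKM with 8OH-G miR-483 and 11.2, 15.4 and 14.3 FPKM with miR-483 (adjusted p = 0.000535), and NDUFAF6 was 1.77-fold higher (adjusted p = 0.000748). NDUFAF5, which modifies the core subunit NDUFS7, and NDUFAF1 also rose, by 0.65 and 0.34 on the log2 scale. NDUFAF3, a partner of NDUFAF4 in assembly, had a log2 difference of 0.09 (adjusted p = 0.338), NDUFAF7 one of 0.19 (adjusted p = 0.0762) and ATP5SL, which despite its name acts in complex I assembly, one of 0.02.

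Complex II, succinate dehydrogenase, takes part in the tricarboxylic acid cycle and is made from nuclear genes alone. Its catalytic iron-sulfur subunit SDHB was at 46.8, 49.9 and 55.6 FPKM with 8OH-G miR-483, against 30.9, 34.8 and 37.9 FPKM with miR-483, a log2 difference of 0.54 ± 0.094 (SE, adjusted p = 0.00132). SDHD, a membrane anchor, was at 37.2, 40.6 and 39.6 FPKM with 8OH-G miR-483 and 29.2, 32.6 and 31.6 FPKM with miR-483 (adjusted p = 0.00419). For both genes the groups did not overlap. SDHA, the flavoprotein and the most abundant of the 4, also had groups that did not overlap, at 71.7, 73.9 and 75.6 FPKM with 8OH-G miR-483 and 65, 67.3 and 69.2 FPKM with miR-483, but its log2 difference of 0.13 did not pass (adjusted p = 0.0988). SDHC, the other anchor, varied within each group, with 19.7, 26.4 and 15.9 FPKM with 8OH-G miR-483 and 14.6, 24.6 and 15.6 FPKM with miR-483 (adjusted p = 0.553). Replicate 2 was the highest in both groups, and the log2 difference went to -0.01 without replicate 2 of 8OH-G miR-483. Reads of SDHA may be shared with its pseudogenes, of which SDHAP1 was called lower, at 8.77, 7.98 and 8.17 FPKM with 8OH-G miR-483 against 11, 9.54 and 10.5 FPKM with miR-483 (adjusted p = 0.0112).

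Of the 4 complex II assembly factors, 1 was higher and 0 were lower (2 and 0 at an unadjusted p under 0.05 by limma). That is 25% higher, against 34.9% of all genes. SDHAF3, which helps the iron-sulfur clusters of SDHB to mature, was at 1.85, 2.2 and 1.61 FPKM with 8OH-G miR-483 and 0.43, 0.589 and 0.77 FPKM with miR-483. The ratio of means was 3.17 and the log2 difference 0.86 ± 0.11 (SE, adjusted p = 0.000274). It passed the filter of 1 FPKM in 3 libraries through the 8OH-G miR-483 group alone, so its selection favoured a difference. SDHAF1 and SDHAF2, which handle the clusters of SDHB and the flavin of SDHA, had log2 differences of -0.13 and -0.06, and SDHAF4 one of 0.24 (adjusted p = 0.0727).

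Complex III passes electrons from ubiquinone to cytochrome c. Of its 10 nuclear subunits 5 were higher and 0 lower (0 also at an unadjusted p under 0.05 by limma), with a median log2 difference of 0.20. The share called higher was 50%, against 34.9% of all genes, and 20% after median-ratio scaling, against 27.2%. The 4 core members were all called higher, with log2 differences of 0.24 to 0.38: CYC1 (cytochrome c1), UQCRFS1 (the Rieske iron-sulfur protein) and the core proteins UQCRC1 and UQCRC2. CYC1 was at 54.1, 47.9 and 44.2 FPKM with 8OH-G miR-483, against 34.7, 36.6 and 40.1 FPKM with miR-483 (adjusted p = 0.00683). UQCRC1 was 1.23-fold and UQCRFS1 1.26-fold higher (adjusted p = 0.008 and 0.0135 by limma). Their groups did not overlap, which the rule for naming them required. After median-ratio scaling CYC1 was the 1 core member called, and UQCRC1 and UQCRFS1 had adjusted p-values of 0.0514 and 0.0632. Of the 6 accessory subunits 1 rose, UQCR10, with 35.9, 37.4 and 33.1 FPKM with 8OH-G miR-483 and 23.9, 26.4 and 28.2 FPKM with miR-483 (adjusted p = 0.00213, and 0.00781 after scaling). UQCRB, a small subunit near the ubiquinone site and the most abundant of the complex, was at 140, 162 and 138 FPKM with 8OH-G miR-483 and 142, 172 and 147 FPKM with miR-483, and the groups overlapped.

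Cytochrome c itself, from CYCS, was among the members that differed most. It was at 26.9, 29.7 and 30.3 FPKM with 8OH-G miR-483, against 12.7, 14.1 and 13.9 FPKM with miR-483. The ratio of means was 2.13 and the log2 difference 1.04 ± 0.074 (SE, adjusted p = 1.02e-05), the smallest adjusted p of the chain genes. Besides carrying electrons, cytochrome c is known to trigger apoptosis when it leaves the mitochondrion. Its partner CYC1 differed 1.31-fold and its acceptor, complex IV, is described next.

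**Figure D3:**
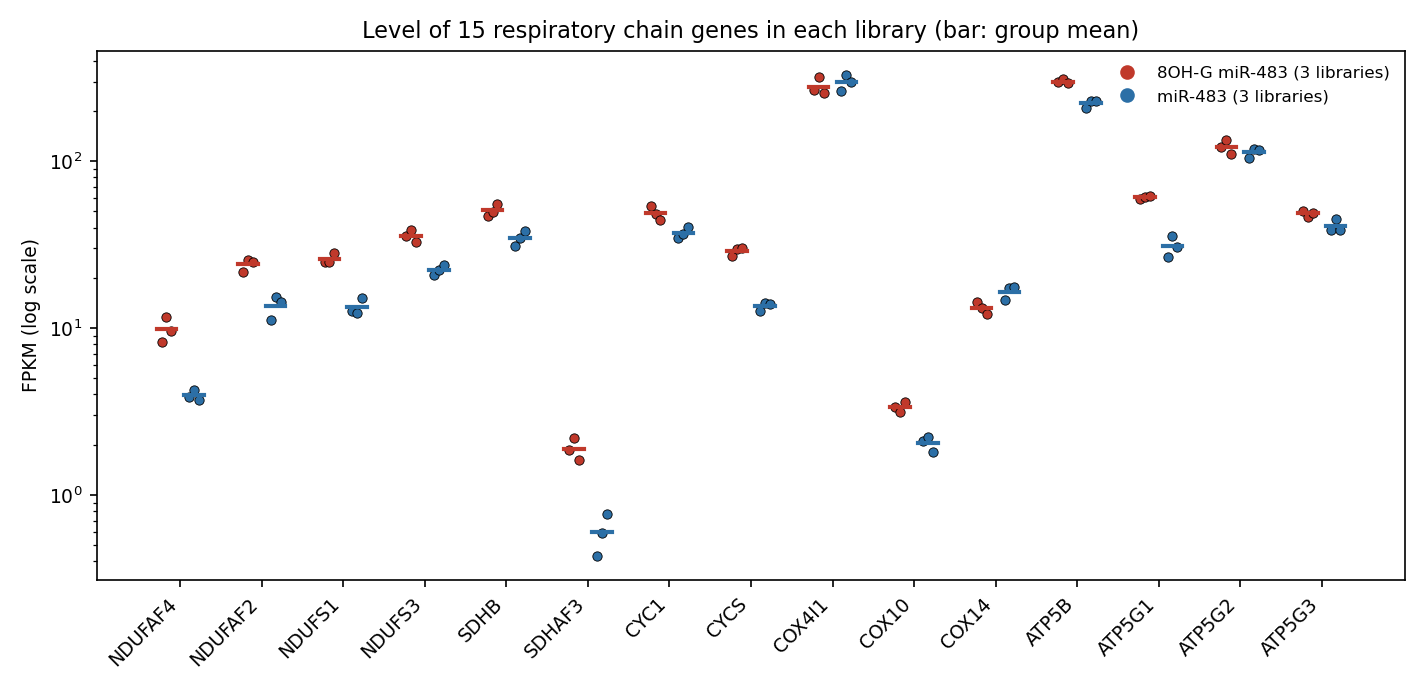
FPKM of 15 chain genes in each library on a log axis, with 8OH-G miR-483 to the left of miR-483 for each gene and a bar at each group mean. NDUFAF4, NDUFS1, CYCS and ATP5G1 have groups that lie far apart (9.82 against 3.94 FPKM for NDUFAF4 and 28.9 against 13.6 FPKM for CYCS, 8OH-G miR-483 against miR-483), whereas COX4I1 and ATP5G2 overlap.

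Complex IV, cytochrome c oxidase, had 1 of 12 tested nuclear subunits higher in the 8OH-G miR-483 libraries and 0 lower (1 and 0 also at an unadjusted p under 0.05 by limma). That is 8.33% higher, against 34.9% of all genes. The median log2 difference was 0.08, close to that of all genes, and it turned to -0.02 under median-ratio scaling and to -0.01 when quantile normalization was used. The gene called was COX8A, at 111, 111 and 101 FPKM with 8OH-G miR-483 and 80.8, 95.3 and 90 FPKM with miR-483 (adjusted p = 0.0189). Its adjusted p was 0.0615 without replicate 1 of miR-483, 0.0671 without replicate 1 of 8OH-G miR-483 and 0.104 after median-ratio scaling. COX4I1, the most abundant of all nuclear chain genes, was at 266, 318 and 255 FPKM with 8OH-G miR-483, against 262, 329 and 299 FPKM with miR-483, and the groups overlapped (log2 difference of -0.08, adjusted p = 0.55). After median-ratio scaling COX6C and COX5B were called lower, with log2 differences of -0.35 and -0.28 (adjusted p = 0.0312 and 0.0262), and 0 subunits higher. COX6C was at 61.2, 67.3 and 69.2 FPKM with 8OH-G miR-483 and 71.3, 93.8 and 69.9 FPKM with miR-483, and its groups all but touched.

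Several complex IV subunits come as a common form and a tissue form. The muscle form COX7A1 was measured low in both groups, at 2.8, 2.56 and 2.85 FPKM with 8OH-G miR-483 and 2.27, 3.06 and 2.38 FPKM with miR-483. The common COX7A2 was at 93.7, 101 and 85 FPKM with 8OH-G miR-483 and 82.9, 92.9 and 86.2 FPKM with miR-483. Neither form was called (adjusted p = 0.568 and 0.379). COX6A1, COX6B1 and COX7B, the common forms of their pairs, had log2 differences of 0.11, 0.01 and 0.15 with adjusted p-values of 0.259, 0.909 and 0.102, and their tissue forms were not analysed here. The differences of COX6B1, COX7A1 and COX7A2 turned to -0.10, -0.01 and -0.02 after median-ratio scaling. NDUFA4, a complex IV subunit once assigned to complex I, had a log2 difference of 0.12 (adjusted p = 0.178). NDUFA4L2, its relative that hypoxia induces, was below the filter, at 0.184, 0.4 and 0.406 FPKM with 8OH-G miR-483 and 0.154, 0.149 and 0.211 FPKM with miR-483.

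The assembly factors named COX had 4 of 10 members higher and 1 lower, with a median log2 difference of 0.21. The share called higher was 40%, against 34.9% of all genes. COX10, which makes heme O on the way to the heme A of the catalytic subunit, was at 3.36, 3.12 and 3.62 FPKM with 8OH-G miR-483, against 2.11, 2.22 and 1.8 FPKM with miR-483 (adjusted p = 0.0011). Its antisense neighbour COX10-AS1 was also higher, at 2.64, 2.22 and 2.75 FPKM against 1.03, 1.18 and 1.52 FPKM (8OH-G miR-483 against miR-483, adjusted p = 0.000886), and since the strand of counting is not given, reads of the pair cannot be told apart. COX18, which inserts the subunit COX2 into the membrane, was 1.44-fold higher (adjusted p = 0.0126), COX11, which brings copper to COX1, 1.30-fold (adjusted p = 0.0152), and COX15, the enzyme after COX10, 1.21-fold (adjusted p = 0.00694). COX14, which stabilises newly made COX1, was the 1 chain gene called lower, at 14.3, 13.2 and 12.1 FPKM with 8OH-G miR-483 and 14.7, 17.4 and 17.5 FPKM with miR-483 (log2 difference of -0.30 ± 0.09, SE, adjusted p = 0.0196). It missed the threshold without replicate 2 or 3 of miR-483 or replicate 3 of 8OH-G miR-483, with adjusted p-values of 0.0615, 0.0755 and 0.0599, and stood at 0.0042 after median-ratio scaling. After that scaling COX10 and COX18 remained the higher ones, 20% of the 10 against 27.2% of all genes.

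Complex V, the ATP synthase, has a catalytic F1 head and an Fo ring in the membrane, joined by stalks. Of its 15 subunits 5 were higher and 0 lower (5 and 0 also at an unadjusted p under 0.05 by limma), with a median log2 difference of 0.17. The share called higher, 33.3%, was near the 34.9% of all genes, of which 20.5% were lower. The count of higher subunits was 3 without replicate 1 or 3 of miR-483 or replicate 1 of 8OH-G miR-483. It was also 3 after median-ratio scaling, 20% against 27.2% of all genes. In the F1 head ATP5B, the catalytic beta subunit and the most abundant gene of the complex, was at 296, 309 and 294 FPKM with 8OH-G miR-483, against 207, 229 and 230 FPKM with miR-483 (log2 difference of 0.44 ± 0.073, SE, adjusted p = 0.00113). ATP5A1, the alpha subunit that alternates with it in the head, was at 166, 183 and 173 FPKM with 8OH-G miR-483 and 137, 166 and 161 FPKM with miR-483 and was not called (adjusted p = 0.128). ATP5D, the delta subunit, was called at an adjusted p of 0.0359, which ran from 0.0528 to 0.111 without any 1 library other than replicate 3 of 8OH-G miR-483. ATP5F1, subunit b of the peripheral stalk, was at 76.1, 81.6 and 86.8 FPKM with 8OH-G miR-483 and 58.6, 67.9 and 62.2 FPKM with miR-483 (adjusted p = 0.00439).

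The c subunit, whose ring turns as protons pass, is the same mature protein from 3 genes that differ in the part cut off on import. ATP5G1 was at 59.7, 61.3 and 62.1 FPKM with 8OH-G miR-483, against 26.5, 35.7 and 30.4 FPKM with miR-483. The groups lay far apart, with a ratio of means of 1.98 and a log2 difference of 0.97 ± 0.10 (SE, adjusted p = 7.37e-05). ATP5G2, the most abundant of the 3, was at 122, 133 and 110 FPKM with 8OH-G miR-483 and 105, 119 and 117 FPKM with miR-483, with overlap (adjusted p = 0.366), and its log2 difference of 0.10 turned to -0.01 after median-ratio scaling. ATP5G3 was at 50.5, 46.5 and 49.1 FPKM with 8OH-G miR-483 and 38.7, 45.3 and 38.7 FPKM with miR-483 (adjusted p = 0.0268, 0.169 after median-ratio scaling, and 0.0603 to 0.103 without replicate 1 or 3 of either group). As a share of the summed FPKM of the 3 genes, ATP5G1 made up 25.7%, 25.4% and 28.1% with 8OH-G miR-483 and 15.5%, 17.9% and 16.4% with miR-483. ATP5G2 made up 52.6%, 55.3% and 49.8% with 8OH-G miR-483, against 61.8%, 59.4% and 62.8% with miR-483, and remained the largest source in every library. The promoter stretches of ATP5G1 and ATP5G2, printed above, differ in the NRF1 match of ATP5G2, and a link to their levels was not tested. No stretch is printed for ATP5G3. ATP5S, called factor B, a protein bound to the synthase whose role is less settled, was at 2.34, 2.8 and 2.32 FPKM with 8OH-G miR-483 and 1.11, 1.33 and 1.31 FPKM with miR-483 (adjusted p = 0.000442).

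Over the 101 chain genes the log2 difference ran against the mean level, with a Spearman correlation across genes of -0.29, and with the length of the longest coding transcript at 0.27. Over all genes the values were -0.01 and -0.03. Within the 77 subunits they were -0.22 and 0.18. The genes share the same 6 libraries and are not independent, so these are descriptions. Assembly factors had a median level of 8.74 FPKM, against 53 FPKM for subunits. Among the 27 names that are not chain proteins 9 passed the filter, and COX10-AS1 was called higher and SDHAP1 lower.

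Genes that serve the chain under other names were read in the same way. Their counts stand beside 34.9% higher and 20.5% lower among all genes. After median-ratio scaling those shares were 27.2% and 27.3%. Of 37 further assembly factors 27 were higher and 2 lower, with a median log2 difference of 0.48, and 25 were higher and 2 lower after median-ratio scaling. COA7, a factor for complex IV, was at 8.61, 8.27 and 9.56 FPKM with 8OH-G miR-483, against 3.46, 3.3 and 3.31 FPKM with miR-483 (adjusted p = 5.97e-06). CMC2, also known for complex IV, was 1.97-fold higher (adjusted p = 1.02e-05), and TMEM126B, a factor for complex I, 1.89-fold (adjusted p = 3.91e-05). The 2 lower ones were PET100, a factor for complex IV, and TTC19, which acts on complex III (log2 differences of -0.23 and -0.28). The share of higher genes in this list, which the name rule does not reach, lay above that of all genes, and the list was not tested as a set.

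Of 16 genes that copy, transcribe or process mitochondrial DNA and RNA, 15 were higher and 0 lower (16 and 0 at an unadjusted p under 0.05 by limma), with a median log2 difference of 0.65, and 14 were higher after median-ratio scaling. TFAM, which packages mitochondrial DNA and starts its transcription, was at 16.5, 15.9 and 22.3 FPKM with 8OH-G miR-483, against 6.61, 5.77 and 6.44 FPKM with miR-483 (adjusted p = 3.03e-05). PNPT1, an RNA nuclease, and SLIRP, which stabilises mitochondrial messenger RNAs, were 2.43-fold and 1.87-fold higher (adjusted p = 1.15e-05 and 4.37e-05). Only POLG, the mitochondrial DNA polymerase, was not called among the 16 (adjusted p = 0.0672). The subunits encoded on mitochondrial DNA itself gave 5 of 11 tested higher and 0 lower, but 3 higher and 3 lower after median-ratio scaling. MT-ND2 and MT-ND1, of complex I, were 1.48-fold and 1.27-fold higher (adjusted p = 0.000329 and 0.00398), and MT-ATP8 was 1.26-fold higher (adjusted p = 0.00451). MT-CYB, MT-CO1 and MT-CO2, of complexes III and IV, had log2 differences of -0.14, -0.13 and -0.11 and were the ones called lower after scaling. The values of MT-ATP8 (70735 FPKM or more as a group mean) and MT-ND4L are too high to be plausible levels, so their calls are uncertain.

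Upstream of the chain, 11 of 17 genes of the tricarboxylic acid cycle and its pyruvate entry were higher and 0 lower (0 also at an unadjusted p under 0.05 by limma), with a median log2 difference of 0.38, and 9 were higher after median-ratio scaling. FH, fumarase, which follows complex II in the cycle, was at 34.1, 37 and 38.6 FPKM with 8OH-G miR-483 and 21.6, 22.4 and 23.3 FPKM with miR-483 (adjusted p = 6.84e-05). CS, citrate synthase, was 1.48-fold and SUCLG2, a subunit of the succinyl-CoA ligase, 1.45-fold higher (adjusted p = 0.000441 and 0.000555). Of 6 proteins that feed ubiquinone by other routes 3 were higher and 1 was lower, among them DHODH of pyrimidine synthesis, 2.89-fold higher (adjusted p = 2.97e-05), ETFDH, 1.45-fold (adjusted p = 0.000827), and GPD2, 1.47-fold (adjusted p = 0.0205, and 0.0504 after median-ratio scaling, which left 2 higher and 1 lower). The lower one was SQRDL, which oxidises sulfide (log2 difference of -0.20, adjusted p = 0.0478). For ubiquinone synthesis 4 of 13 were higher and 0 lower (5 and 0 at an unadjusted p under 0.05 by limma, 3 and 3 after median-ratio scaling). The 4 of 13 lay below the 34.9% called higher among all genes. PDSS1, which makes the side chain of ubiquinone with PDSS2, was at 5.22, 5.02 and 5.7 FPKM with 8OH-G miR-483, against 1.25, 1.58 and 1.55 FPKM with miR-483 (adjusted p = 5.9e-06), and PDSS2 was not called (adjusted p = 0.0553). COQ2 and COQ3, which attach the side chain to the ring and methylate the product, were 1.98-fold and 2.23-fold higher (adjusted p = 0.000177 and 0.000409).

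**Figure D4:**
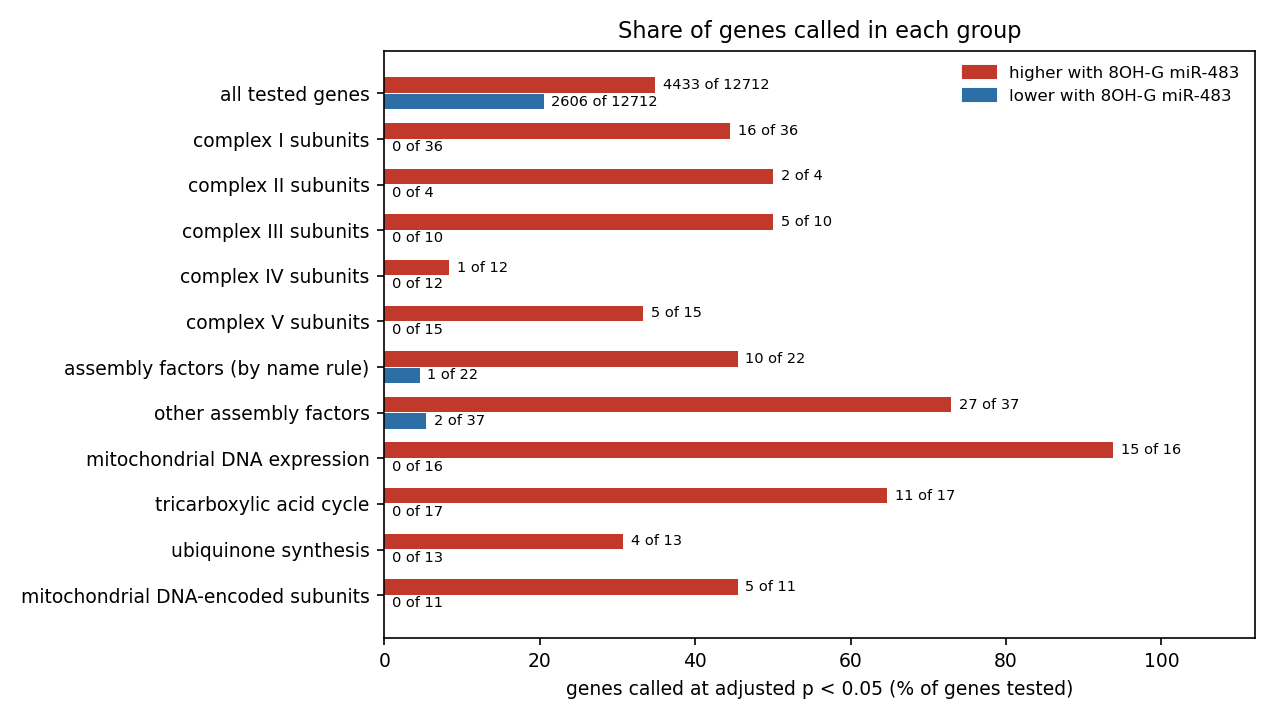
Percent of tested genes called higher or lower with 8OH-G miR-483 at an adjusted p of 0.05, for all genes, the subunits of each complex, the assembly factors and the further lists, with counts beside the bars. Complex IV subunits (1 of 12 higher) are below the 34.9% of all genes, while further assembly factors (27 of 37) and genes for mitochondrial DNA expression (15 of 16) are above it.

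Of 9 tested regulators of respiratory genes 3 were higher and 0 lower (4 and 0 at an unadjusted p under 0.05 by limma, 2 and 1 after median-ratio scaling). The 3 of 9 lay close to the 34.9% called higher among all genes. PPRC1, a coactivator of NRF1, was at 15.6, 16.5 and 17.5 FPKM with 8OH-G miR-483, against 8.48, 7.48 and 9.1 FPKM with miR-483 (adjusted p = 3.83e-05). MYC and CREB1, transcription factors with respiratory genes among many targets, were 1.89-fold and 1.29-fold higher (adjusted p = 9.99e-06 and 0.023). NRF1 and GABPA, whose motifs were searched above, had log2 differences of 0.24 and 0.16 (adjusted p = 0.1 and 0.121), and YY1 one of -0.15 (adjusted p = 0.102), called lower after median-ratio scaling (adjusted p = 0.0145). The 3 further parts of the synthase listed under other names, USMG5, C14orf2 and the inhibitor ATPIF1, had log2 differences of 0.14, 0.14 and -0.09, with 0 called (0 also at an unadjusted p under 0.05 by limma).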

How the data were processed

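The data are RNA sequencing values from 6 libraries of HUVECs, 3 with 8OH-G miR-483 and 3 with miR-483. Per the submitters' processing notes, the tools were cutadapt, STAR, HTSeq and DESeq2 and the build was hg19, with no versions or order. The strand of counting and the treatment of multi-mapped reads were not given in the sources used here. A deposited file lists gene names with 1 decimal value each. Their unit was inferred from the values to be FPKM, made by the authors by scaling for the length of a gene and the size of a library. Low values did not fall on whole-read steps (28.4% and 29.6% at the best of 200 depth ratios, against medians of 25.4% and 26.4%), so read depth is unknown and no counting interval is given.

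Of 20792 rows, 24 had names turned into dates and were left out. A repeated name (744 in all) was taken at its highest value per library. In replicate 1 of miR-483, 14 of the 744 had a single value on all rows, and in the other libraries all 744. Genes that reached 1 FPKM in 3 or more libraries entered a fit by group alone in limma 3.58.1 under R 4.3.3, with trended and robust variance shrinkage, on log2(FPKM + 1), which understates the change of low genes. A positive log2 difference means a higher value with 8OH-G miR-483, and N-fold values are ratios of mean FPKM. The members, lists and tests were chosen with earlier results of these data known.

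The genes named are, per class, up to 3 higher and 3 lower with the largest differences among those past the threshold without overlap, the most abundant of each complex, complex II, cytochrome c, the isoform sets, and up to 3 of each further list by adjusted p. Other members were named after their values were seen, to complete a class. The values of 1 member are not reported here. Promoters came from RefSeq, and transcript lengths from GENCODE 29, on another build than the files. Alternatives covered the pseudocount (0.1), filters, scaling, repeated names, a replicate block, variance shrinkage, a fold of 1.2 and each library left out. Figures were drawn in matplotlib 3.10.9 from Python 3.11.15.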

Additional observations from a re-analysis of the deposited data

How the results depend on the processing

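With 3 libraries a group, no read counts in the files used, and the scramble control not analysed here, every value is limited. The naming rule picked 29 called chain genes, of which 0 reversed. Most were picked for large differences without overlap in these same libraries, so the choice itself made a reversal or a lost call less likely. SDHAF3 passed the filter through 1 group alone and was below it whenever a library of 8OH-G miR-483 was left out. Of the other 28, 11 kept their call under every alternative in which they were tested: ATP5G1, ATP5S, COX10, CYCS, NDUFAF2, NDUFAF4, NDUFAF6, NDUFB6, NDUFS1, NDUFS3 and SDHB. Called genes named outside the rule were not followed in this way. Over 40 genes of the rule and all alternatives, 531 of 591 values kept direction and call, 50 lost the call and 10 changed sign. After median-ratio scaling higher calls were 18 for subunits, 2 for complex III, 0 for complex IV and 3 for complex V, and lower calls were 3 for subunits, 1 for complex I and 2 for complex IV. Quantile normalization gave 6 higher assembly factors, 3 higher complex V subunits and lower calls for 2 subunits, 1 of them in complex I and 1 in complex IV. A mean of at least 5 FPKM left 6 of 14 assembly factors higher, with fewer tested, against 3196 of 8565 among all genes. Testing against a fold of 1.2 left 2257 of 12712 genes higher and 1179 lower. Higher calls were then 5 of 77 subunits and 6 of 22 assembly factors, SDHAF3 included, with 0 assembly factors lower. The share of subunits lay below that of all genes, and that of assembly factors above it. The 5 subunits were 3 of 36 in complex I, 1 of 4 in complex II and 1 of 15 in complex V. Complexes III and IV had 0 of 10 and 0 of 12. Leaving out 1 library moved the log2 difference of COX6B1 between -0.05 and 0.07, of SDHC between -0.01 and 0.40 and of UQCRB between -0.14 and 0.02, and gave 0 to 1 higher complex IV subunits, 3 to 5 higher complex V subunits and 0 to 1 lower assembly factors. The sign turned after median-ratio scaling for ATP5G2 (-0.01), COX6B1 (-0.10), COX7A1 (-0.01) and COX7A2 (-0.02), after quantile normalization for COX6B1 (-0.04) and COX7A1 (-0.05), without replicate 1 of miR-483 for COX6B1 (-0.04), without replicate 2 of 8OH-G miR-483 for COX6B1 (-0.05) and SDHC (-0.01), and without replicate 2 of miR-483 for UQCRB (0.02). None of these genes was called, and the cause was not tested. Deviations of same-numbered libraries from their group means had correlations of 0.0171, 0.332 and 0.0118 for numbers 1 to 3. With 3 libraries a group these values cannot decide whether the numbers pair the samples. Of the 3 numbers, 2 did not give the best match for their own number. With the replicate block 51 of 101 chain genes were higher, including the 41, and 9 of 15 complex V subunits, against 5 without it. Higher calls among all genes rose as well, to 4798 of 12712 from 4433.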

Other observations

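Among the names that are not chain proteins, the readthrough transcript ATP5J2-PTCD1 was listed at 0.585, 0.387 and 1.35 FPKM with 8OH-G miR-483, against 0, 0 and 0.033 FPKM with miR-483, and fell below the filter. The readthrough NDUFC2-KCTD14 ran from 0 to 6.33 FPKM with 8OH-G miR-483 and from 3.48 to 9.27 FPKM with miR-483, while NDUFC2 itself was called higher (log2 difference of 0.38). How reads were divided between a gene and its readthrough is not given in the sources used here.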
